A study of Mus musculus with 12 samples.

Results

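The Slit ligands and the Robo receptors were examined in sorted conduction cells and working myocytes of the mouse heart. The members were taken by gene symbol, Slit1, Slit2, Slit3, Robo1, Robo2 and Robo4, and all 6 were among the 48526 genes counted. RNA came from adult male mice that were either Ncam-1 wild type (WT) or homozygous for a constitutive Ncam-1 deletion (KO), both crossed with the Cntn2-EGFP reporter, a BAC transgene. The Ncam-1 line was held on C57BL/6 and the reporter line on CD1. Every heart was digested by Langendorff perfusion and every cell suspension was stained with 50 nM of the mitochondrial dye TMRM. Purkinje cells (PC), the fast-conducting cells of the ventricle, were sorted as RFP+GFP+, and ventricular myocytes (VM) as RFP+GFP-. Each of the 4 groups, WT PC, KO PC, WT VM and KO VM, held 3 libraries. The deletion was carried by all cells of the animal, VMs included, and the GFP gate read the activity of a Cntn2 transgene, so that Cntn2 itself was part of the sort. The labels did not say whether the libraries of a group came from separate animals, so the p-values below measure the spread between libraries, which may in part be technical.

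Slits are secreted ligands that bind Robo receptors on the cell surface, and heparan sulfate proteoglycans take part in the binding. The pair is best known for turning growing axons away from the midline, and in the heart it takes part in chamber, septum and valve formation. Robo4 is an atypical receptor found mainly in endothelial cells, and Robo1 and Robo2 are the receptors that bind Slits directly in neurons.

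The libraries held between 1532393 and 6761356 counts on genes outside the mitochondrial genome, which took 79.0% to 91.3% of the counts on genes. One library, WT PC 2, stood apart from the rest. In it 63.9% of read pairs were not aligned, against 18.8% to 24.7% elsewhere, and its median rank correlation with the other libraries was 0.828, against 0.872 to 0.890. Some values of the members that it moves are given below with and without it, while levels of pathway genes and marker lists are given with it only. Ncam1, the deleted gene, had 34 to 116 counts in the WT PC libraries and 0 or 1 in each of the 6 KO libraries. Cntn2 lay at 236.7 to 532.8 normalized counts in WT PC, 38.67 to 452.4 in KO PC and 2.22 to 8.99 in the VMs. Of 9 Purkinje cell markers 8 had positive log2 fold changes in PCs over VMs and 5 passed the adjusted threshold, while the summed level of 10 cardiomyocyte markers lay between 254478 and 349249 normalized counts in every library. A normalized count is a read count divided by the effective library size of its library and scaled to the typical library, so values can be set side by side for 1 gene but not between genes of different length.

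The members lie on 5 chromosomes (GRCm38, which shares its coordinates with the mm10 build used for alignment). Slit2 (ENSMUSG00000031558) spans chr5:47983138-48307733 on the plus strand, Slit3 (ENSMUSG00000056427) spans chr11:35121224-35708507 on the plus strand and Slit1 (ENSMUSG00000025020) spans chr19:41600257-41743665 on the minus strand. Robo1 (ENSMUSG00000022883) and Robo2 (ENSMUSG00000052516) lie on the same chromosome, at chr16:72308306-73046095 on the plus strand and chr16:73891839-74411825 on the minus strand. Robo4 (ENSMUSG00000032125) spans chr9:37401897-37415115 on the plus strand, 12.1 Mb from Ncam1. None of the annotated genes that overlap a member shared an exon base with it, and 0 of the 50-base runs of its annotated exons recurred in another Slit or Robo gene, so reads of this length could be told apart between members.

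Slit2 and Slit3, the ligands that had more reads in PCs, share one feature that the choice of genes did not use. Each carries a microRNA gene in an intron, on its own strand, and both of these make the same 5p arm, at chr5:48223966-48223986 inside Slit2 and at chr11:35616840-35616860 inside Slit3. The arms are shown because they are the sequence the ligand loci have in common, with the seed (bases 2 to 8) in capitals, from RefSeq on GRCm38.
miR-218-5p, from Mir218-1 in Slit2 and Mir218-2 in Slit3: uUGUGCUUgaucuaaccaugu
miR-218-1-3p, from Slit2: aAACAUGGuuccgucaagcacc
miR-218-2-3p, from Slit3: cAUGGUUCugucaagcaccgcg
The 5p seeds were identical and the 3p seeds differed. Mature microRNAs were not measured in these libraries, where Mir218-1 had 0 to 3 counts and Mir218-2 had 0 in each.

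RefSeq gave a start site for 5 of the 6 members, Slit1 being the exception. The stretches just upstream are shown for 2 members that were higher in PCs and for Robo4, which did not pass the test, each ending before the first annotated exon base. Matches in either strand to 5 short motifs are in capitals: TATAAA (the TATA box), GGGCGG (the GC box), GGTGTGA (bound by T-box factors), TNAAGTG (bound by Nkx2-5) and CCGGAA (bound by ETS factors).
Slit2, chr5:47982905-47983137, plus strand: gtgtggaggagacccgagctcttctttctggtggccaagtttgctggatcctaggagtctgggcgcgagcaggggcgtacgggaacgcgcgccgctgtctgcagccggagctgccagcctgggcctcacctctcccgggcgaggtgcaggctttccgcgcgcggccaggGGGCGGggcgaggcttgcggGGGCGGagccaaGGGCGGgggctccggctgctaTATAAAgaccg
Robo1, chr16:72662899-72663148, plus strand: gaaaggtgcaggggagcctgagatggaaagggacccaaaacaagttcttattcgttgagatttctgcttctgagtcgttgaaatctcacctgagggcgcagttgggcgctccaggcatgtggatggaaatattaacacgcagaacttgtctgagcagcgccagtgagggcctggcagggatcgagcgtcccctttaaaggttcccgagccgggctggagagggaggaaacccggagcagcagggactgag
Robo4, chr9:37401722-37401896, plus strand: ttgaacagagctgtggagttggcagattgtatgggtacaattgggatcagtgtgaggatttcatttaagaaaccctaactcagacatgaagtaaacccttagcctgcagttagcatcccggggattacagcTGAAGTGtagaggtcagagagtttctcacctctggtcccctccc
The Slit2 stretch held TATAAA once, 6 to 11 bases before the first exon base, and GGGCGG 3 times. Of 32851 RefSeq windows of the same length, 11.6% held TATAAA and 32.2% held GGGCGG. Its G and C content was 70.4%, against a median of 52.4% over those windows. The Robo1 stretch, which lies within the span of Robo1 and downstream of its most distant annotated start, held none of the 5 motifs at a G and C content of 56%. The Robo4 stretch held TNAAGTG once, as did 6.91% of windows of its length. The RefSeq windows ended at the start site and were not cut at exons, while the Slit2 and Robo4 stretches ended further upstream. Their shares and G and C content are thus set beside windows of the same length but unlike position. No pair of matches overlapped. For Slit3 only 18 bases of the RefSeq window lay outside an annotated exon, and none are printed.

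To ask which guidance genes mark the conduction cells, WT PC were compared with WT VM. Slit2 and Slit3 transcripts were far more abundant in PCs, Robo1 was read only in PCs, Robo4 did not pass the test, and Slit1 and Robo2 were at or near 0. Of the 6 members, 4 passed the filter of a mean normalized count above 5, and 2 of these were higher in PCs at an adjusted p under 0.05, with edgeR's quasi-likelihood test and Benjamini-Hochberg adjustment over 11822 genes. Over all genes tested 0.11% were called higher. The median log2 fold change was 4.54 over the 4 members tested and -0.0036 over all genes tested. Robo1 passed the filter only through its PC reads, so the member median describes these 4 genes and carries no test.

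Slit2, a ligand of Robo1 and Robo2, had 284, 737 and 1438 normalized counts in the WT PC libraries, from 652, 378 and 2489 reads. In the WT VM libraries it had 22.5, 26.4 and 25.1 normalized counts, from 24, 28 and 34 reads. The lowest PC library was above every VM library, as was so in this direction for 7.29% of all genes tested. The PC libraries differed among themselves by 5.06 times while the VM libraries lay within 1.17 times. The means were 820 ± 581 and 24.7 ± 1.97 (SD, n = 3 each), a log2 fold change of 5.02 (SE 0.585, approximate 95% interval 3.88 to 6.17, edgeR adjusted p = 0.0295). The two-sided exact permutation test over the 6 libraries gave p = 0.1, the smallest that 3 against 3 can give. Each of the 3 WT VM libraries was needed for the call. Leaving out 1 of them moved the log2 fold change only to between 4.97 and 5.07 but the adjusted p to between 0.185 and 0.339, whereas the call held without WT PC 2 (5.11, edgeR adjusted p = 0.000326).

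Slit3, the third ligand of the family, had 79.3, 83.9 and 204 normalized counts in the WT PC libraries, from 182, 43 and 353 reads. In WT VM it had 8.44, 6.59 and 6.66 normalized counts, from 9, 7 and 9 reads. The groups did not overlap, as was so in the same direction for 7.29% of all genes tested. Slit3 thus had a log2 fold change of 4.05 (SE 0.530, approximate 95% interval 3.01 to 5.09, edgeR adjusted p = 0.0317), with an exact permutation p of 0.1, again the smallest possible. The call was lost without WT PC 3 (log2 fold change 3.46, edgeR adjusted p = 0.156) or without any 1 of the WT VM libraries (adjusted p 0.247 to 0.415). It was also lost with counts thinned to equal depth (log2 fold change 3.71, edgeR adjusted p = 0.0789) and with the replicate block (3.92, edgeR adjusted p = 0.103). Without WT PC 2 the call held (4.26, edgeR adjusted p = 0.000326).

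Robo1, a receptor of Slit2 and Slit3, was read in every WT PC library and in no WT VM library. Groups without overlap in this direction were found for 7.29% of all genes tested. The WT PC values were 14.8, 125 and 29.5 normalized counts, from 34, 64 and 51 reads, and the highest of them came from WT PC 2, the library with few aligned reads. The WT PC mean of 56.4 ± 59.7 (SD, n = 3) was at least 21.5-fold higher than a floor of 3 counts in each VM library allows, and at least 8.46-fold higher without WT PC 2, at a mean of 22.1. The edgeR adjusted p was 0.218, and the exact permutation p was 0.1. Without WT PC 2 the edgeR adjusted p was 0.00926, and it was 0.115 to 0.951 in the other 5 fits that left out 1 library. Of 9 alternative settings 4 put Robo1 past the threshold.

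Robo4, the endothelial receptor, had 29.6, 0 and 8.67 normalized counts in WT PC, from 68, 0 and 15 reads. In WT VM it had 9.38, 5.65 and 7.40 normalized counts, from 10, 6 and 10 reads. The WT PC libraries thus lay on both sides of the VM libraries, with WT PC 2 at 0. The log2 fold change was 0.84 (SE 1.01, approximate 95% interval -1.14 to 2.83, edgeR adjusted p = 0.883), and without WT PC 1 it was -0.53 and without WT PC 2 it was 1.34, neither past the adjusted threshold.

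Slit1 and Robo2 could not be compared. Slit1, the ligand best known from the brain, had 1 read in the whole series, in WT VM 2. Robo2 had 0 to 6 reads a library, its highest value being 7.03 normalized counts in KO PC 1. For a library with no read of a gene, 3 reads is the upper limit, which is 1.31 to 5.85 normalized counts across the libraries, and this limit covers counting error only. Robo3, which lies next to Robo4 at chr9:37415669-37433246, and its ligand Nell2 had 0 reads in each of the 12 libraries.

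**Figure D1:**
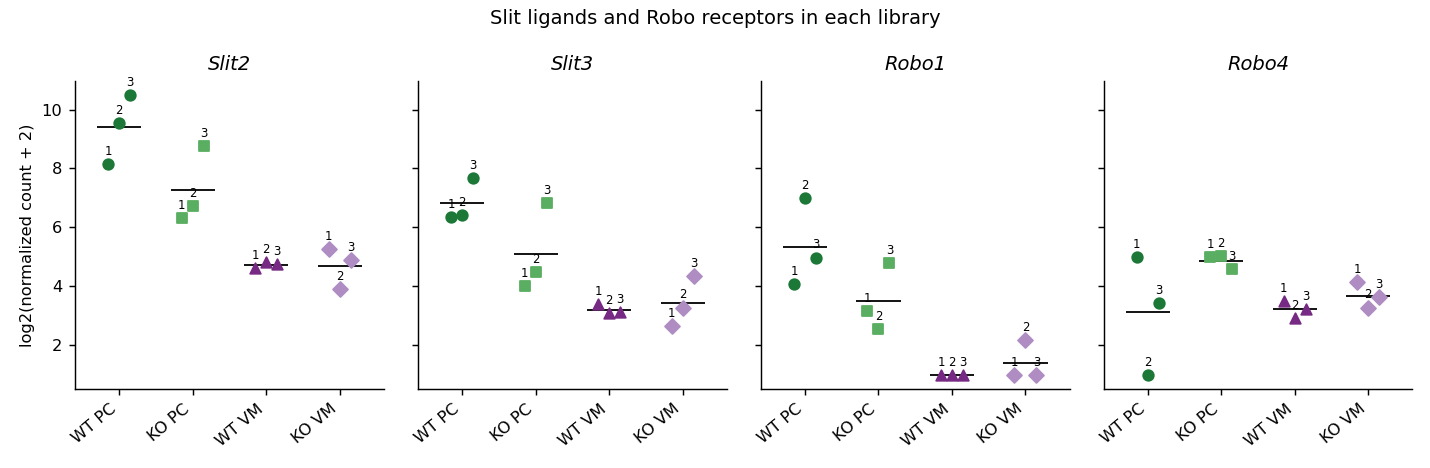
Expression of Slit2, Slit3, Robo1 and Robo4 in the 12 libraries, as log2(normalized count + 2), with 1 point a library numbered by replicate, groups on the horizontal axis and the mean of the 3 libraries as a line. Slit2 and Robo1 lie higher in every PC library than in any VM library, Slit3 overlaps between KO PC and KO VM, and Robo4 lies lowest in WT PC 2.

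The same question in the KO was asked with KO PC against KO VM. Slit2 was again higher in PCs, and Slit3, Robo1 and Robo4 had positive fold changes that did not pass the adjusted threshold. Of the 4 members tested 1 was called higher, where 0.863% of 10779 genes were, and the median log2 fold change over the 4 was 2.67 against 0.0092 over all genes tested. Robo1 again passed the filter only through its PC reads, so this median also carries no test.

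Slit2 had 77.3, 105 and 432 normalized counts in KO PC, from 44, 83 and 647 reads, and 36.8, 12.8 and 27.8 in KO VM, from 26, 10 and 24 reads. KO PC 3 was far above the other KO PC libraries, and the groups did not overlap, which was so in the same direction for 8.66% of all genes tested. The log2 fold change was 3.04 (SE 0.548, approximate 95% interval 1.97 to 4.11, edgeR adjusted p = 0.0158, exact permutation p = 0.1). Without KO PC 3 it was 1.83 (edgeR adjusted p = 0.0255). The call was lost without any 1 of the KO VM libraries, at adjusted p values of 0.0634 to 0.0795, and in one fit of all 12 libraries (log2 fold change 3.03, edgeR adjusted p = 0.120).

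Slit3 had 14.1, 20.2 and 112 normalized counts in KO PC and 4.24, 7.70 and 18.5 in KO VM. KO VM 3 lay above KO PC 1, so the groups overlapped. Its log2 fold change was 2.30 (SE 0.699, edgeR adjusted p = 0.169), and without KO PC 3 it was 0.73.

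Robo1 had 4, 3 and 38 reads in KO PC and 0, 2 and 0 in KO VM, which are 7.03, 3.79 and 25.4 against 0, 2.57 and 0 normalized counts. Every KO PC library was above the KO VM libraries, as was so for 8.66% of all genes tested. KO PC 2, at 3 reads, and KO VM 2, at 2 reads, lay closest. The ratio of summed, depth-scaled counts was 18.5 (exact 95% interval 4.83 to 157, counting error only), and the edgeR adjusted p was 0.182.

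Robo4 had 29.9, 30.3 and 22.1 normalized counts in KO PC and 15.6, 7.70 and 10.4 in KO VM, from 17, 24, 33 and 11, 6, 9 reads. The groups did not overlap, which was so in the same direction for 8.66% of all genes tested. Its log2 fold change of 1.27 (SE 0.505) had an unadjusted edgeR p of 0.0228 and an adjusted p of 0.391.

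With both genotypes in one fit and genotype as a term, Slit2, Slit3 and Robo1 were each higher in PCs than in VMs. These 3 of the 4 members tested passed the adjusted threshold, where 1.26% of 11323 genes were called higher. The calls held in each of the 12 fits that left out 1 library and in each of the 8 other settings.

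For Slit2 the 6 PC libraries had 77.3 to 1438 normalized counts and the 6 VM libraries 12.8 to 36.8, with no overlap. The log2 fold change was 4.12 (SE 0.550, approximate 95% interval 3.04 to 5.19, edgeR adjusted p = 0.00104), and relabelling the libraries within each genotype gave an exact permutation p of 0.005, the smallest of 400 relabellings. Slit3 had 14.1 to 204 normalized counts in PCs and 4.24 to 18.5 in VMs, so the groups overlapped by way of KO PC 1 and KO VM 3. Its log2 fold change was 3.22 (SE 0.564, approximate 95% interval 2.12 to 4.32, edgeR adjusted p = 0.00759, exact permutation p = 0.01). Robo1 had 194 reads over the PC libraries and 2 over the VM libraries, a depth-scaled ratio of 76.5 (exact 95% interval 20.9 to 636, counting error only), with an edgeR adjusted p of 0.00633 and an exact permutation p of 0.005. No member but Slit2 and Robo1 separated all 6 PC libraries from all 6 VM libraries, as 1.4% of the genes tested did in this direction. Robo4 had a log2 fold change of 1.09 (SE 0.534, edgeR adjusted p = 0.449).

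**Figure D2:**
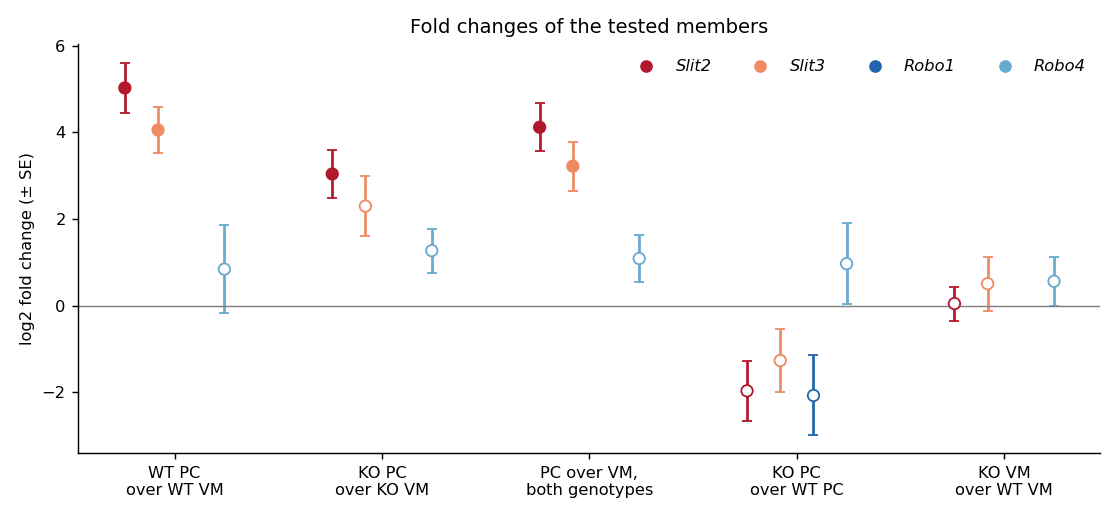
Log2 fold change with its SE for Slit2, Slit3, Robo1 and Robo4 in 5 comparisons on the horizontal axis, with filled points for an edgeR adjusted p under 0.05. Slit2 and Slit3 stand at 5.02 and 4.05 in WT PC over WT VM and below 0 in KO PC over WT PC, where no point is filled, and Robo1 is not drawn against VMs, where it was at or near 0 reads.

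Markers of other cell types moved with the PC and VM groups. In the fit of both genotypes, 13 of 13 endothelial markers tested (of 14), 10 of 10 fibroblast markers tested (of 11) and 8 of 8 smooth muscle and pericyte markers tested (of 9) had log2 fold changes above 0 in PCs, with medians of 1.56, 1.88 and 1.43, and 5, 5 and 1 of them passed the adjusted threshold. The summed endothelial level was 1463 to 1962 normalized counts in WT PC, 1014 to 3285 in KO PC, 489 to 965 in WT VM and 160 to 612 in KO VM. The summed fibroblast level was 794 to 1787, 752 to 1164, 260 to 471 and 75.0 to 375 in the same order, and all markers of these lists were read in the series. The smooth muscle and pericyte sum was 1146 to 1419, 1011 to 2492, 489 to 986 and 253 to 692. Leukocyte sums were 306 to 767 in WT PC, 276 to 316 in KO PC and 15.6 to 171 in the VMs. In the fit of both genotypes 6 of 6 leukocyte markers tested (of 10) had log2 fold changes above 0, with a median of 2.16, and 2 were called. The same was so for 3 of 3 epicardial markers tested (of 6), with a median of 2.33 and 0 called. Epicardial sums were 25.7 to 91.7 in WT PC, 0 to 80.8 in KO PC, 5.92 to 16.9 in WT VM and 0 to 17.4 in KO VM. Of the 10 neuron and Schwann cell markers, Sox10, Th, Prph, Tubb3 and Gap43 were at 0 reads in every library, and 4 were read. Their summed level was 7.80 to 45.1 normalized counts in WT PC, highest in WT PC 3, and 3.79 to 19.3 in KO PC. It was 2.82 to 15.9 in WT VM and 5.66 to 18.5 in KO VM. The 1 marker tested over both genotypes had a log2 fold change of 1.10 in PCs and was not called. The part of endothelial, mural, fibroblast, immune, epicardial and neural cells in the Slit and Robo levels was not tested. In bulk RNA, more cells of a type and more RNA per cell cannot be told apart.

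Robo4 was set beside the endothelial list directly. It had 19.2, 0 and 5.93 reads per 1000 reads of the list in WT PC, 9.10, 19.7 and 21.7 in KO PC, 9.72, 11.5 and 12.9 in WT VM, and 97.3, 12.6 and 19.7 in KO VM. The groups overlapped on this scale. The mean was 8.37 ± 9.82 in WT PC and 11.4 ± 1.61 in WT VM (SD, n = 3 each, two-sided exact permutation p = 0.7), and 16.8 ± 6.79 in KO PC and 43.2 ± 47.0 in KO VM (SD, n = 3 each, exact permutation p = 0.6).

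The study set KO PC against WT PC to ask what loss of Ncam-1 does to the transcripts of conduction cells. Slit2, Slit3 and Robo1 had lower means in KO PC, Robo4 had a higher mean, the libraries of the genotypes overlapped for each of them, and no member passed the adjusted threshold. With edgeR 0 of the 4 members tested were called, 2 of them (Slit2 and Robo1) had an unadjusted p under 0.05, and DESeq2 and limma voom called 0. Over all 11754 genes tested, 0% were called at an adjusted p under 0.05 and 3.22% had an unadjusted p under 0.05, and 9.52% did not overlap between the genotypes. The median log2 fold change was -1.61 over the 4 members tested and -0.0023 over all genes tested.

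For Slit2 the KO PC mean of 205 ± 198 normalized counts stood against 820 ± 581 in WT PC (SD, n = 3 each), a ratio of 0.25. KO PC 1 and KO PC 2, at 77.3 and 105, lay below every WT PC library, and KO PC 3, at 432, lay above WT PC 1, at 284. The fit gave a log2 fold change of -1.96 (SE 0.698, approximate 95% interval -3.33 to -0.59), with an unadjusted edgeR p of 0.0183, an adjusted p of 0.993 and an exact permutation p of 0.2. It was -3.19 without KO PC 3, -1.26 without WT PC 3 and -2.01 without WT PC 2, and none of the fits that left out 1 library called it. With no filter on low counts, where 21610 genes were tested, Slit2 was called at an edgeR adjusted p of 2.82e-07, and over all other settings the adjusted p did not pass the threshold.

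Slit3 had means of 48.8 ± 55.0 normalized counts in KO PC and 122 ± 70.7 in WT PC (SD, n = 3 each). KO PC 3, at 112, lay between the WT PC libraries, and the other 2 KO PC libraries lay below them. The log2 fold change was -1.26 (SE 0.728, approximate 95% interval -2.69 to 0.16, edgeR adjusted p = 0.993), and it was -2.85 without KO PC 3 and -0.67 without WT PC 3.

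Robo1 had means of 12.1 ± 11.7 normalized counts in KO PC and 56.4 ± 59.7 in WT PC (SD, n = 3 each). KO PC 3, at 25.4, lay above WT PC 1, at 14.8. Its log2 fold change was -2.06 (SE 0.921, edgeR adjusted p = 0.993, exact permutation p = 0.2), and it was -0.76 without WT PC 2 and -3.38 without KO PC 3. Robo4 had 27.4 ± 4.65 normalized counts in KO PC and 12.8 ± 15.2 in WT PC (SD, n = 3 each), with a log2 fold change of 0.97 (SE 0.939, approximate 95% interval -0.87 to 2.81, edgeR adjusted p = 0.993). The KO PC libraries lay close together and the WT PC libraries spread from 0 to 29.6, with WT PC 2 at 0. Without WT PC 2 the WT PC mean of Robo4 was 19.2. Its log2 fold change was 0.47 to 2.35 in the fits that left out 1 library.

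Cntn2, the gene behind the sort, moved with Slit2, Slit3 and Robo1 across the PC libraries. It had 38.67, 49.2 and 452 normalized counts in KO PC and 237, 451 and 533 in WT PC, so KO PC 3 was again the high library of its group. The summed level of the 9 Purkinje cell markers was 255 to 1047 in KO PC, with KO PC 3 highest, and 606 to 1396 in WT PC. Scaled to Cntn2, the genotypes lay close together. Slit2 gave 2, 2.13 and 0.956 reads per Cntn2 read in KO PC and 1.201, 1.64 and 2.70 in WT PC, and the groups overlapped. The means were 1.69 ± 0.643 and 1.85 ± 0.771 (SD, n = 3 each, two-sided exact permutation p = 0.9). Slit3 gave 0.341 ± 0.0835 reads per Cntn2 read in KO PC and 0.301 ± 0.103 in WT PC (SD, n = 3 each, exact permutation p = 0.6). Robo1 gave 0.105 ± 0.0674 and 0.132 ± 0.126 (SD, n = 3 each, exact permutation p = 0.9), and without WT PC 2, which gave 0.277, the WT PC mean was 0.0590, below that of KO PC. With 3 libraries a group these tests cannot go below 0.1. In WT VM, where Cntn2 had 3 or 4 reads a library, Slit2 gave 8, 7 and 11.3 reads per Cntn2 read, above every PC library. In KO VM, at 2, 7 and 4 Cntn2 reads, it gave 13, 1.43 and 6, and KO VM 2 lay within the range of the PC libraries. Cntn2 itself had a lower mean in KO PC, 180 against 407 normalized counts in WT PC. The paper also observed lower Cntn2 in KO PC, which did not reach significance in its RNA-seq analysis. A ratio of genes that are both lower can stay level, so it cannot show whether the members changed per Purkinje cell. The ratio to Cntn2 was added after the data were seen.

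**Figure D3:**
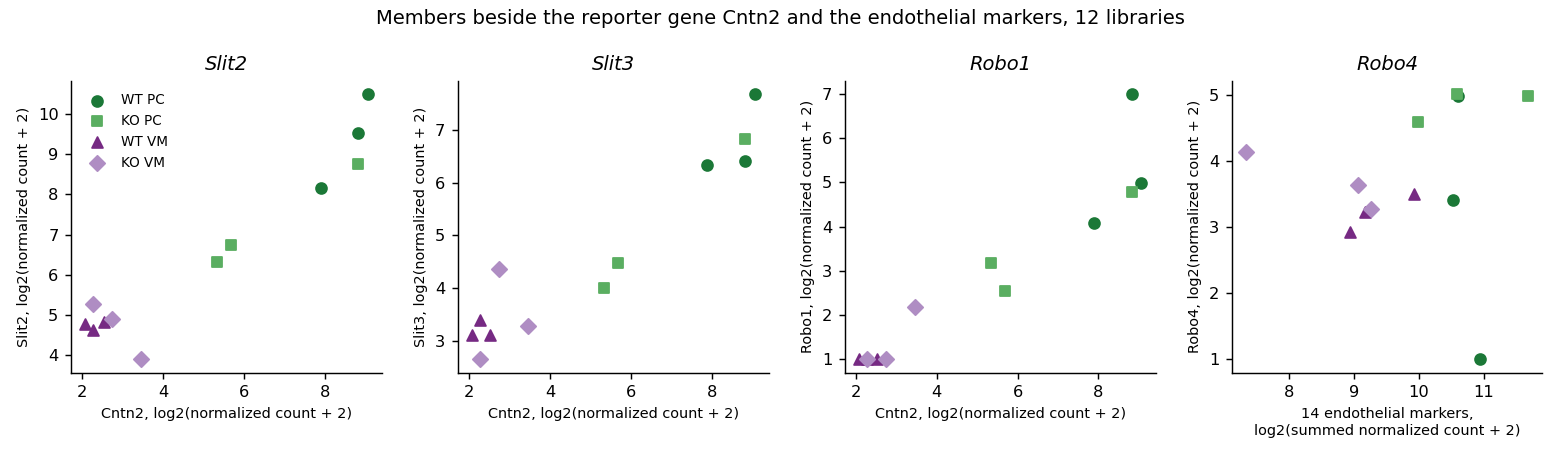
Slit2, Slit3 and Robo1 against Cntn2, and Robo4 against the summed endothelial markers, in the 12 libraries, all as log2(normalized count + 2), with 1 point a library and colours and shapes for the 4 groups. KO PC 3 lies with the WT PC libraries for Slit2, Slit3 and Robo1, at a Cntn2 level of 452 normalized counts. KO PC 1 and KO PC 2 lie between the WT PC and the VM libraries for these genes, except that KO PC 1 lies below KO VM 3 for Slit3.

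In VMs the genotypes were close. Of the 3 members tested 0 were called with edgeR, 0 had an unadjusted p under 0.05, and DESeq2 and limma voom called 0, where edgeR called 0.0373% of 10737 genes and gave 5.12% an unadjusted p under 0.05. Slit2 had 25.8 ± 12.1 normalized counts in KO VM and 24.7 ± 1.97 in WT VM (SD, n = 3 each), a log2 fold change of 0.05 (SE 0.392, approximate 95% interval -0.72 to 0.82). The sign turned when either KO VM 1 (-0.28), KO VM 3 (-0.0037) or WT VM 1 (-0.019) was left out. Slit3 had 10.2 ± 7.45 and 7.23 ± 1.05 (SD, n = 3 each), a log2 fold change of 0.51 (SE 0.625, approximate 95% interval -0.72 to 1.73), which was -0.25 without KO VM 3. Robo4 had 11.2 ± 3.99 and 7.47 ± 1.87 normalized counts (SD, n = 3 each), a log2 fold change of 0.56 (SE 0.571, approximate 95% interval -0.55 to 1.68). The groups overlapped for each of them, while 9.63% of all genes tested did not, and Robo1, with 2 reads over these 6 libraries, was not tested.

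Over both cell types with cell type as a term, no member was called for the genotype with edgeR, DESeq2 or limma voom, and 1 of the 4 tested, Slit2, had an unadjusted edgeR p under 0.05, where 0.0353% of 11323 genes were called and 5.03% had an unadjusted p under 0.05. The log2 fold changes of KO over WT were -1.21 for Slit2 (SE 0.519, edgeR adjusted p = 0.922), -0.62 for Slit3 (SE 0.541), -1.57 for Robo1 (SE 0.884) and 0.78 for Robo4 (SE 0.532). Relabelling within each cell type gave Robo4 an exact permutation p of 0.05, without adjustment over members, and Slit2 one of 0.13. The Robo4 test included WT PC 2, at 0 reads, and was not repeated without it. In the 12 fits that left out 1 library the Robo4 log2 fold change was 0.52 to 1.32, and 0 of them called it. Whether the genotype difference itself differed between PC and VM was tested as an interaction. The interaction term was -2.02 for Slit2 (SE 0.919, edgeR adjusted p = 0.999), -1.79 for Slit3 (SE 1.03), and 0.38 for Robo4 (SE 1.12), on the log2 scale. With edgeR 0 of 4 members passed the adjusted threshold and 1, Slit2, the unadjusted one, where 0% and 2.9% of 11323 genes did, and DESeq2 and limma voom called 0.

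In order of level, Slit2 ran from WT PC through KO PC to KO VM and WT VM. The first pair and the last pair of neighbours in that order did not differ at the adjusted threshold, and the middle pair, KO PC and KO VM, did. Slit3 ran in the same order of groups, and Robo1 from WT PC through KO PC to the VMs, where both groups lay at or under the limit of 3 reads. None of their neighbouring groups that were tested differed at the adjusted threshold. Robo4 ran from KO PC through WT PC and KO VM to WT VM, and the neighbours that were compared did not differ at the adjusted threshold.

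Between members, levels were compared only per kb of annotated exon, as normalized counts per kb. In WT PC Slit2 stood at 32.2 ± 22.9 and Slit3 at 20.2 ± 11.7 (SD, n = 3 each), and the libraries of the ligands overlapped. The receptors were lower, Robo1 at 3.41 ± 3.62 and Robo4 at 2.41 ± 2.87 (SD, n = 3 each), and they overlapped with each other. WT PC 2 held the highest Robo1 value, 7.56, and the lowest Robo4 value, 0. Without it the means, in normalized counts not divided by length, were 22.1 for Robo1 and 19.2 for Robo4. Robo4 is the shorter gene, so the order of these receptors per kb rested on WT PC 2. In KO PC Slit2 stood at 8.05 ± 7.77, Slit3 at 8.05 ± 9.07, Robo4 at 5.17 ± 0.876 and Robo1 at 0.731 ± 0.706 (SD, n = 3 each). In WT VM Robo4 was at 1.41 ± 0.352, Slit3 at 1.19 ± 0.173 and Slit2 at 0.970 ± 0.0774 (SD, n = 3 each), and in KO VM they were at 2.12 ± 0.752, 1.67 ± 1.23 and 1.01 ± 0.475. The Slit2 and Robo1 values depend on the length taken, which for Slit2 is 25433 bases over all annotated exons or 9960 bases for its longest transcript, and for Robo1 16511 or 7563 bases. By the longest transcript Slit2 stood at 82.3 in WT PC and, at 2.48 against 1.38 for Slit3, above Slit3 in WT VM. In KO PC it then stood at 20.6 against 9.34 for Slit3. Robo1 stood at 7.45 in WT PC, where WT PC 2 was again highest at 16.5, and at 1.60 in KO PC by that length.

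Across the 12 libraries Slit2, Slit3 and Robo1 moved together. On the log2(normalized count + 2) scale Pearson's r was 0.944 between Slit2 and Slit3, 0.903 between Slit2 and Robo1 and 0.866 between Slit3 and Robo1, while Robo4 had r of -0.072 with Slit2, -0.033 with Slit3 and -0.25 with Robo1. These last values turned on WT PC 2, and over the other 11 libraries they were 0.421, 0.337 and 0.487, while those among Slit2, Slit3 and Robo1 were 0.910 to 0.942. The libraries share the sort into PC and VM and their depth, so these values describe the pattern and carry no test. Among 8100 genes with a mean normalized count above 20, the closest to Slit2 were Map1a, a microtubule-associated protein (r = 0.983), Sema3a, another secreted axon guidance ligand (r = 0.969), and Etv1, an ETS factor of conduction cells (r = 0.964). The closest to Slit3 were Cntn2 (r = 0.949), Slit2 (r = 0.944) and Map1a (r = 0.933). The closest to Robo1 were Spock2, an extracellular matrix proteoglycan (r = 0.955), Sema3a (r = 0.953) and Etv1 (r = 0.950). Each of these genes had its highest mean in WT PC, followed by KO PC. Sema3a had 402 ± 208 normalized counts in WT PC, 117 ± 96.4 in KO PC and 10.1 ± 0.416 in WT VM (SD, n = 3 each), and Map1a had 113 ± 54.6, 50.4 ± 55.5 and 7.66 ± 1.15 (SD, n = 3 each). The closest to Robo4 were other genes, Cdon, a cell surface co-receptor of hedgehog ligands (r = 0.926), Orai3, a calcium channel (r = 0.923), and Pacs2, a sorting protein (r = 0.915), and each of these had its highest mean in KO PC, as Robo4 did. Each also had its lowest value in WT PC 2, at 2, 6 and 11 reads, where Robo4 had 0, and without that library r was 0.821, 0.852 and 0.805.

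The remaining genes of the pathway were taken as 58 genes in 7 lists of co-receptors, proteoglycans, enzymes and intracellular partners. In PC against VM over both genotypes 47 of them were tested, 2 were called higher and 0 lower, against 1.26% of all genes called higher, and their median log2 fold change was 0.07 against 0.02 over all genes tested. With edgeR none was called in WT PC against WT VM, where 5 of 49 had a higher level at an unadjusted p under 0.05, as did 5.14% of all genes tested. In KO PC against KO VM 1 of 45 was called higher, against 0.863% of all genes tested.

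Of the co-receptors and membrane partners, 8 of 12 were tested in both genotypes and Flrt2 was called. Flrt2, a transmembrane guidance protein, had 66.9 ± 37.8 normalized counts in WT PC, 36.3 ± 9.69 in KO PC, 22.7 ± 2.44 in WT VM and 14.6 ± 2.69 in KO VM (SD, n = 3 each), a log2 fold change of 1.43 in PCs (SE 0.325, edgeR adjusted p = 0.0413). Every PC library was above every VM library, as was so for 1.4% of all genes tested. Cxcl12, a chemokine whose signal Slits can dampen in leukocytes, was called in KO PC against KO VM with a log2 fold change of 2.30 (SE 0.423, edgeR adjusted p = 0.0180), from 110 to 538 normalized counts in KO PC and 43.8 to 69.3 in KO VM. Over both genotypes it had a log2 fold change of 1.51 and an edgeR adjusted p of 0.0545. Fgfr1, a growth factor receptor, had 0.70 (SE 0.318) and Cdh2, the cadherin of myocyte junctions, -0.25 (SE 0.0984), neither past the adjusted threshold. Dcc, the netrin receptor that Robo1 can bind, had 0 reads in every library.

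Of the heparan sulfate proteoglycans 9 of 10 were tested and Sdc4 was called. Sdc4, a syndecan, had 103 ± 62.9 normalized counts in WT PC, 56.5 ± 18.3 in KO PC, 20.6 ± 7.49 in WT VM and 31.6 ± 9.43 in KO VM (SD, n = 3 each), with a log2 fold change of 1.61 in PCs (SE 0.376, edgeR adjusted p = 0.0456). The lowest PC library, at 43.9, lay above the highest VM library, at 38.5, over both genotypes, as was so in this direction for 1.4% of all genes tested. Hspg2, the basement membrane proteoglycan perlecan, had a log2 fold change of 0.57 (SE 0.145, edgeR adjusted p = 0.0616), Sdc3, a further syndecan, 1.504 (SE 0.425, edgeR adjusted p = 0.103) and Gpc6, a glypican, 1.80 (SE 0.576, edgeR adjusted p = 0.153). The enzymes of heparan sulfate synthesis had a median of -0.07 over the 8 of 10 tested, none called. Hs3st1, a sulfotransferase of that list, had 3.43 (SE 1.10, edgeR adjusted p = 0.636) in WT PC over WT VM. It had 8 to 27 reads a library in WT PC and 0 to 2 in WT VM, under the limit of 3 reads, so this value is no measure of size.

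Inside the cell, 14 of 16 Robo adaptors and kinases were tested and none was called, with a median log2 fold change of 0.21. The members named by their unadjusted p were Cap1, an actin-binding protein, at 0.82 (SE 0.339), and Nck2, an adaptor, at 1.33 (SE 0.578), and in WT PC over WT VM Srgap1, a GTPase-activating protein that binds Robo1, at 2.497 (SE 1.03). The 5 genes of Robo turnover and trafficking had a median of 0.03, none called. In KO PC against WT PC none of the 49 pathway genes tested passed the adjusted threshold with edgeR, and 2 had an unadjusted p under 0.05, as did 3.22% of all genes tested, Cxcl12 at a log2 fold change of 1.39 (SE 0.485) and Hs3st1 at -3.20 (SE 1.21). Hs3st1 had only 0 to 2 reads a library in KO PC, so its value is no measure of size.

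**Figure D4:**
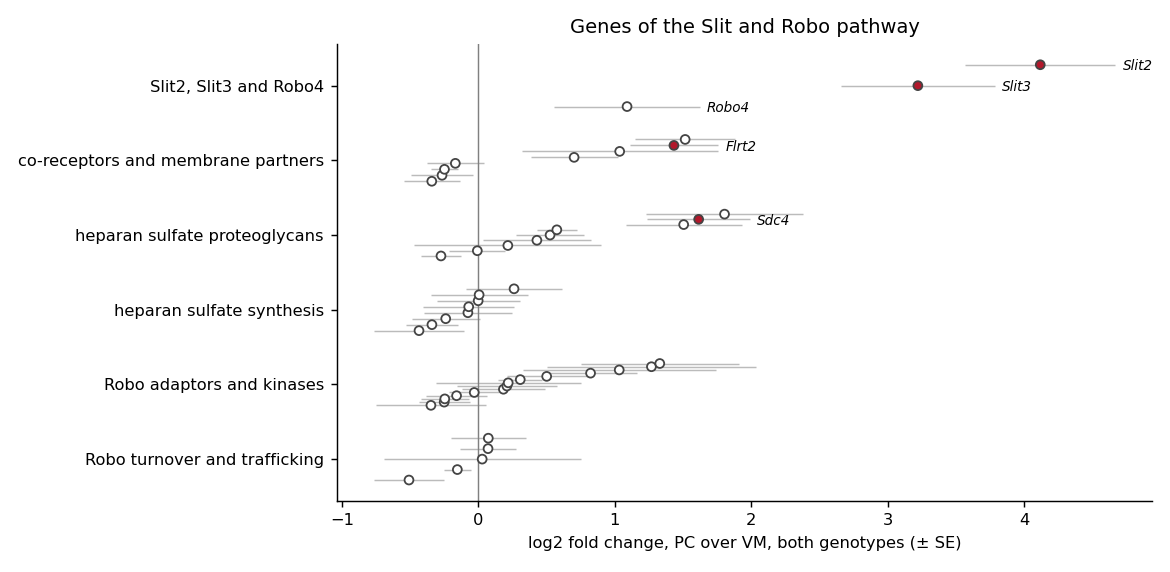
Log2 fold change with its SE in PC over VM, both genotypes, for Slit2, Slit3 and Robo4 and for the tested genes of 5 lists of the Slit and Robo pathway on the vertical axis, 1 point a gene and filled for an edgeR adjusted p under 0.05. Slit2 at 4.12 and Slit3 at 3.22 lie beyond every gene of the lists, of which Flrt2 at 1.43 and Sdc4 at 1.61 are filled.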

How the data were processed

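Per the labels and the methods of the study, RNA of sorted cells was amplified with a low-input kit, sequenced as 50-base pairs, aligned to mm10 with STAR 2.5.0c guided by the GRCm38.74 annotation, and counted per gene with HTSeq 0.6.0. The strand setting was not given in the sources used here. The deposited values were raw read counts per gene, which the authors had not normalized, with 1 file a library. The 5 summary lines of HTSeq were left out of library sizes.

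Counts were normalized with TMM and tested with edgeR 4.0.16 (quasi-likelihood test, R 4.3.3) fitted to every gene whose normalized count averaged above 5 in the libraries of the comparison, and p-values were adjusted by Benjamini-Hochberg across the whole table at a threshold of 0.05. Single members were also compared by two-sided exact permutation tests of the mean log2(normalized count + 2). Alternatives used DESeq2 1.42.0, limma 3.58.1 (voom), other filters and scalings, thinned counts and each library left out in turn, and the procedure was tested on simulated data. An approximate 95% interval is the estimate with its SE scaled by the normal distribution. Exact intervals and limits at 0 counts cover counting error only, since amplified reads are not independent molecules.

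Replicate numbers in the titles were checked for pairing by the correlation of deviations from the group means. The source names number the WT libraries 1, 3 and 4 where the titles have 1, 2 and 3, so a block across genotypes rests on the titles alone. Genes named were the members, Ncam1, Cntn2, Robo3, pathway genes past an adjusted p of 0.05 or, for lists with fewer than 3 of these, up to 3 with an unadjusted p under 0.05, and the 3 genes most correlated with a member. The members and lists were chosen with earlier results of these data known. Gene positions came from GENCODE on GRCm38 and sequences from RefSeq on GRCm38. A symbol was found for 48058 of 48526 gene identifiers. One pathway list and 1 marker gene are not reported here.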

Additional observations from a re-analysis of the deposited data

How the results depend on the processing

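In PC against VM over both genotypes Slit2, Slit3 and Robo1 stayed past the threshold in all 8 settings and all 12 fits without 1 library. In WT PC against WT VM the number of members called, 2 in the report, was 1 with the replicate block and 1 when all libraries were thinned to the least deep one, where Slit3 was lost at log2 fold changes of 3.92 and 3.71 (edgeR adjusted p 0.103 and 0.0789), and 0 to 3 without 1 library, with log2 fold changes of 4.32 to 5.45 for Slit2 and 3.46 to 4.31 for Slit3. Robo1 was called there at fitted log2 values of 8.50 with DESeq2, 9.15 with no filter, 5.75 with voom and 8.91 in one fit of all libraries, values that are no measure of size against 0 reads, and Robo4 ranged from -0.53 to 1.34 without 1 library. In KO PC against KO VM the number called, 1 in the report, was 2 with no filter and 2 with the replicate block, which added Slit3, 0 in one fit of all 12 libraries, where Slit2 stood at 3.03 (edgeR adjusted p = 0.120), and 0 to 1 without 1 library, with 1.83 to 3.41 for Slit2. With no filter on low counts 1 member, Slit2, was called in KO PC against WT PC, 1 in KO against WT over both cell types (edgeR adjusted p = 2.14e-05) and 1 in the interaction (edgeR adjusted p = 0.00497). The cause was not tested.

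Signs turned for Slit2 in KO VM against WT VM with voom (-0.11) and the replicate block (-0.0096), and between -0.28 and 0.39 without 1 library. They also turned for Slit3 there (-0.25 to 0.86 without 1 library) and for Robo4 in the interaction, at -0.92 with thinned counts and -0.088 to 1.72 without 1 library. Same-numbered libraries correlated by -0.0096 to 0.121 between KO PC and KO VM and by 0.0813 to 0.207 between WT PC and WT VM. Libraries of different number correlated by -0.131 to 0.0920 and by -0.169 to 0.0193 in the same order. In the WT every same-numbered pair thus lay above every other pair, while in the KO the ranges overlapped. The main fits and the permutation tests left the libraries unpaired, and whether same-numbered WT libraries shared a heart was not tested. The replicate block changed no other call of a member.

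Over all genes the number called depended on the tool, 13, 124 and 130 in WT PC against WT VM with edgeR, DESeq2 and voom, 145, 458 and 451 over both genotypes, and 0, 7 and 1 in KO PC against WT PC. In WT PC against WT VM it was 4 with the replicate block, 297 with no filter and 108 without WT PC 2. Slit1 and the VM levels of Robo1 lay at or under the limit of 3 reads, and differences there were not detectable at this depth. Robo2, at 0 to 6 reads a library, did not pass the filter on low counts.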
